A study of Mus musculus with 10 samples.

Results

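The genes described here are 9 transcription factors of interferon and cytokine signalling, the interferon regulatory factors Irf1, Irf2, Irf3, Irf5, Irf7, Irf8 and Irf9 and the signal transducers Stat2 and Stat3. They were chosen by symbol from the table of 27968 rows, in which each has 1 row of its own and none is joined with another gene. All 9 are among the 16681 rows with a valid test. The data are mRNA profiles of 5 tumours, sequenced as 10 samples because each library was run on 2 lanes. The tumours grew under the skin of immune-compromised mice from C57BL/6 mouse embryonic fibroblasts with RAS and DNP53, a dominant-negative p53. The title of the authors' deposited table gives the RAS as RAS-G12V. In 3 of them cyclin D1 was tagged (TAG) and in 2 it was not (WT). All 5 came from mice given the same HA-siRNA, named for the HA epitope, in the Aonys formulation, so no untreated tumour is among them. The MEF numbers in the labels are 12 and 14 for the tagged tumours, with 14 used for 2 of them, and 18 and 25 for the untagged ones, so that the tag is compared between cell populations. The sources used here do not give the immune defect of the host mice.

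The table holds 1 abundance for condition C1 and 1 for condition C2, with Cuffdiff's p and q. The header names no unit, and from the table's layout the values are taken as FPKM, fragments scaled by transcript length and by sequencing depth. No source used here says which condition is tagged. Every direction below is therefore that of C2 relative to C1. No value has an SD or n, and the spread between tumours cannot be given. The depth is unknown. The sources do not say if each lane entered Cuffdiff as a replicate, which would make its p-values too small. A row was called when its q in the authors' deposited table was under 0.05, which held for 7.12% of tested rows, 4.20% higher and 2.92% lower in C2. The median log2 ratio was 0.05 over all tested rows. Fibroblast markers were abundant in both conditions, among them the mesenchymal filament Vim, listed in the authors' deposited table with 2970 FPKM (C1) and 2027 FPKM (C2). Epithelial markers were present too, and 9 of 11 were called higher in C2. A bulk sample cannot separate a change in the number of cells of a type from a change in RNA per cell.

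Interferons are secreted when a cell senses foreign nucleic acid. The sensors lead to phosphorylation of IRF3 and IRF7, which enter the nucleus and switch on interferon genes. Secreted interferon then acts through receptors and JAK kinases on STAT proteins, and STAT2 joins IRF9 in the complex ISGF3. ISGF3 binds the interferon-stimulated response element (ISRE), while dimers of STAT3 and some other STATs bind the gamma-activated site (GAS). Irf7 is itself known as a target of ISGF3.

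Promoter sequences are shown first because these elements tie the factors to one another and to their targets. The windows are RefSeq's for build GRCm38.p6, from 250 bases before to 50 after each annotated gene start, and all 9 genes matched, with 12 windows in total. The ISRE core searched was GAAANNGAA and the GAS core was TTCNNNGAA, each on both strands. The GAS core reads the same on either strand, and no match to it overlapped an ISRE match in these genes. The 250 bases upstream of the start are printed for Irf7, the member that was called, and for the members whose window held a match. Capitals mark the matches, and each sequence runs 5' to 3' on the gene's strand. For Irf1 and Irf8 the first of 2 annotated starts is shown.
Irf7 (chr7:141266425-141266674, minus strand): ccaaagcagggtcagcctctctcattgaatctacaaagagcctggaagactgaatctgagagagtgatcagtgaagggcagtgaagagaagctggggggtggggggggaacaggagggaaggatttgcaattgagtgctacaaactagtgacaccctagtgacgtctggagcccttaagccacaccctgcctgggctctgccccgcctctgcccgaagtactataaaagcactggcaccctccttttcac
Irf1 (chr11:53769764-53770013, plus strand): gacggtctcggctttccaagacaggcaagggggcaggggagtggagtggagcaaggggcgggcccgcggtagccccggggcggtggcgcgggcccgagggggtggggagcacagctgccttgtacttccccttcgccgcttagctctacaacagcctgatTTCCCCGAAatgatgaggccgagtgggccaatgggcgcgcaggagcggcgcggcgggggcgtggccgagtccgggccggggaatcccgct
Irf2 (chr8:46739495-46739744, plus strand): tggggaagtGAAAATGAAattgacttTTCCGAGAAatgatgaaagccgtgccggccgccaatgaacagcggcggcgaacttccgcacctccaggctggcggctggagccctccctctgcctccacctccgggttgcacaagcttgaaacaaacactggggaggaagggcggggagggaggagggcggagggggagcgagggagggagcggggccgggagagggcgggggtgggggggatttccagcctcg
Irf8 (chr8:120736108-120736357, plus strand): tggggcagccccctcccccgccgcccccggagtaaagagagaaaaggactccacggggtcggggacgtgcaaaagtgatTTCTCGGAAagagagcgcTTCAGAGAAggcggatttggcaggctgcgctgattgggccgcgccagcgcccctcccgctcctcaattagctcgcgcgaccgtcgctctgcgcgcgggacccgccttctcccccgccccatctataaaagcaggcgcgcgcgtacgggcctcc
Stat2 (chr10:128270248-128270497, plus strand): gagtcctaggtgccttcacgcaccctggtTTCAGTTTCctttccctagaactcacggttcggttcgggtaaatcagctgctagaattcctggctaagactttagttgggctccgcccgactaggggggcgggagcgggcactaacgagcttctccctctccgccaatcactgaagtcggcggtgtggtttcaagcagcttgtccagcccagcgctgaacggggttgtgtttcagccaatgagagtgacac

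The ISRE core occurred in the windows of 2 of the 9 genes, Irf2 and Stat2. Among all 27025 genes with a window it occurred in 9.76%. In Irf2, often an antagonist of IRF1, the match began 241 bases upstream of the start, and a GAS core followed it at 224 bases. In Stat2 the match began 221 bases upstream and lay on the other strand. The GAS core occurred in 3 of the 9 genes, Irf1, Irf2 and Irf8, against 9.55% of all genes. The Irf1 match began 90 bases upstream of the first start, and Irf8 held a pair of matches at 171 and 153 bases. Neither core was found in the windows of Irf3, Irf5, Irf7, Irf9 or Stat3, which says only that these letters are not in these windows.

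**Figure D1:**
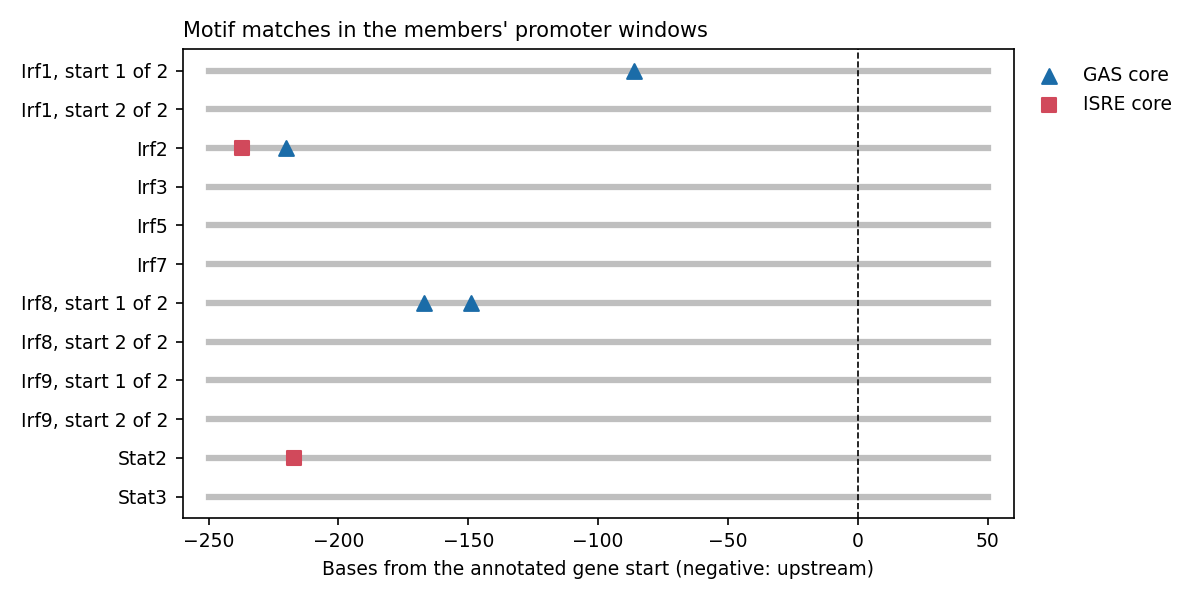
Matches to the ISRE core (squares) and the GAS core (triangles) in the 12 promoter windows of the 9 genes, by distance in bases from the annotated gene start (dashed line). Matches lie in the windows of Irf1, Irf2, Irf8 and Stat2, and the window of Irf7 holds none.

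Of the 9 genes, 1 was called, Irf7, and it was higher in C2. That is 11.1% of the genes beside 7.12% of all tested rows (4.20% for rows higher in C2), and with so few genes this share is no result about the group. None (0) was called lower. At an unadjusted p under 0.05 there were 2, Irf7 and Irf9, beside 17.1% of tested rows. The log2 ratio was above 0 for 7 genes and below 0 for 2, and 7 of the 9 lay within 0.5 of 0. Their median was 0.12, beside 0.05 over all tested rows. The ratios of Irf7 and Irf9 were the ones outside that band.

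Irf7, the factor that drives the late and large wave of type I interferon, is on chromosome 7 from 148449081 to 148452323 (MGSCv37, XLOC_023484). For Irf7 the authors' deposited table lists 5.17 FPKM under C1 and 29.0 FPKM under C2. The level in C2 was 5.61-fold that in C1 (log2 ratio 2.49), and the authors' deposited table gives p = 5e-05 and q = 0.00167. The p is the smallest that Cuffdiff gave and was shared by 500 rows. The call was lost under the Holm adjustment, which left 0 rows called in the whole table, and with a normal p computed from the deposited test statistic (0.102 after adjustment), an alternative chosen after seeing the data. A log2 ratio at least as high was found for 2.91% of tested rows. In the order of all tested rows by level, Irf7 moved from place 10455 in C1 to place 4197 in C2.

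Within the family this changed the order of levels. In C1 Irf7 was 7th of the 9, above only Irf5 and Irf8, and its level per length was 0.221 times that of Irf3. In C2 it was 3rd, and its level was 0.997 times that of Irf3. Against Irf1 the level of Irf7 went from 0.412 to 1.75 times, and against Irf9 from 0.480 to 1.52 times. The 7 interferon regulatory factors summed to 72.3 FPKM for C1 and 115 FPKM for C2, computed from the authors' deposited table. Irf7 made up 7.15% of that sum in C1 and 25.3% in C2. Without Irf7 the sums were 67.1 and 85.9 FPKM. The order among neighbours cannot be set against a spread, since the table has none.

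**Figure D2:**
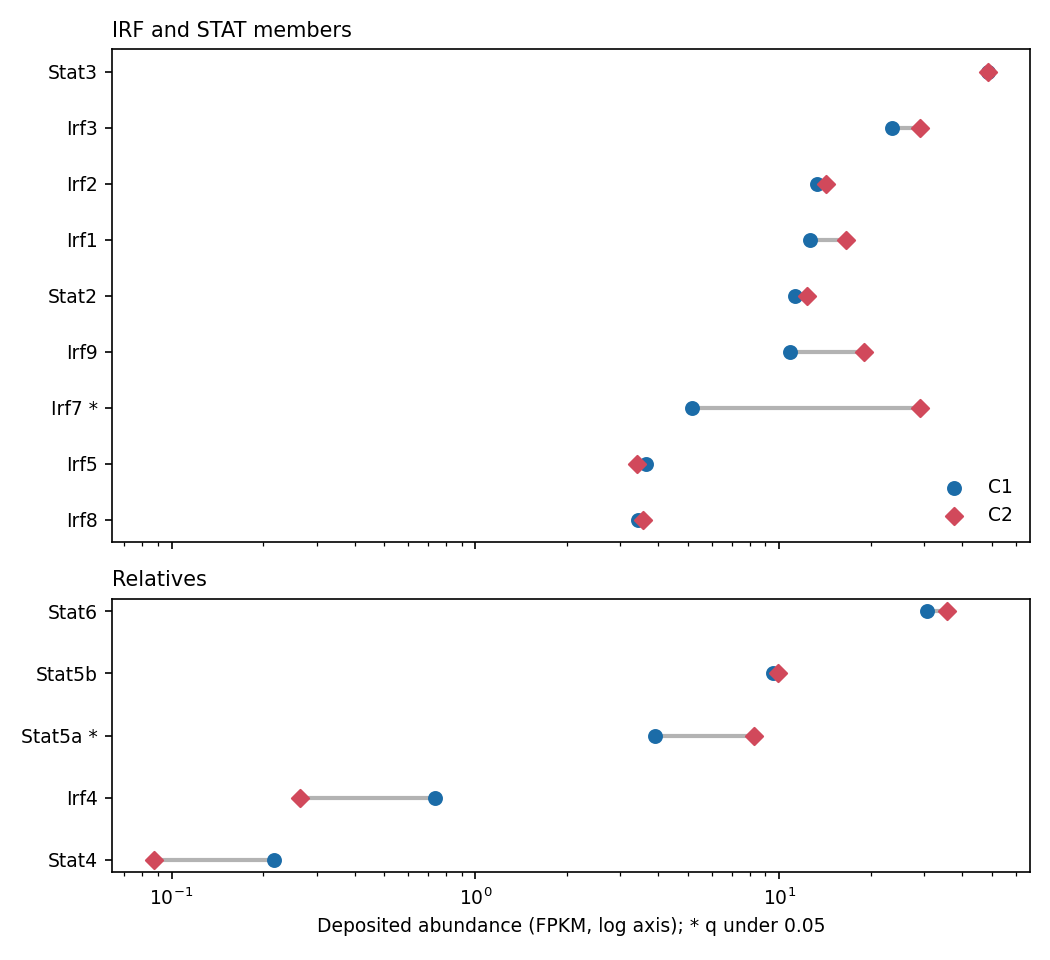
Deposited abundance in FPKM (log axis) of the 9 genes (top) and of 5 relatives (bottom), with C1 as circles and C2 as diamonds, ordered by C1. An asterisk marks a q under 0.05. Irf7 went from 5.17 to 29.0 FPKM and drew level with Irf3, while Stat3 stayed the highest of the 9 in both conditions.

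Irf3 is the constitutive factor that acts first after sensing, and was 2nd of the 9 by level in both conditions. For Irf3 the authors' deposited table lists 23.4 FPKM under C1 and 29.1 FPKM under C2 (log2 ratio 0.31, q = 0.693). Its level was thus well above that of Irf7 in C1 and about equal to it in C2.

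Irf9 encodes the DNA-binding subunit of ISGF3. For Irf9 the authors' deposited table lists 10.8 FPKM under C1 and 19.0 FPKM under C2 (log2 ratio 0.82, q = 0.118). Its deposited p was 0.01225, and the gene was not called. Its ratio was the second highest of the 9. For scale, 3755 tested rows had a log2 ratio at least as far from 0 as that of Irf9, and 1168 of these (31.1%) were called. Among called rows, 95% had an absolute log2 ratio of at least 0.91.

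Stat2 encodes the transactivating subunit of ISGF3. For Stat2 the authors' deposited table lists 11.3 FPKM under C1 and 12.3 FPKM under C2 (log2 ratio 0.12, q = 0.940). Relative to Irf9, Stat2 stood at 1.05 times in C1 and 0.644 times in C2. The log2 ratios of these ISGF3 genes were thus 0.82 for Irf9 and 0.12 for Stat2, and the difference between them was not tested.

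Irf1 is an activator downstream of gamma interferon, and Irf2 often opposes it at shared sites. For Irf1 the authors' deposited table lists 12.6 FPKM under C1 and 16.6 FPKM under C2 (log2 ratio 0.40, q = 0.609). For Irf2 the authors' deposited table lists 13.3 FPKM under C1 and 14.2 FPKM under C2 (log2 ratio 0.09, q = 0.956). These partners with opposed roles lay side by side in the order in C1, at places 4 and 3, and at places 5 and 6 in C2. Neither was called, which does not show that their levels were equal.

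Irf8, which directs monocytes and dendritic cells, and Irf5, which acts below Toll-like receptors in myeloid cells, were the lowest of the 9 in both conditions. For Irf8 the authors' deposited table lists 3.43 FPKM under C1 and 3.55 FPKM under C2 (log2 ratio 0.05, q = 0.983). With re-centring on the median of rows with at least 1 FPKM its ratio was -0.01. For Irf5 the authors' deposited table lists 3.63 FPKM under C1 and 3.40 FPKM under C2 (log2 ratio -0.09, q = 0.968). Macrophage markers, a list of 18 symbols with 17 rows, all tested, had a median log2 ratio of -0.11. They summed to 1167 FPKM for C1 and 1065 FPKM for C2. In that list 1 gene was called higher, the endotoxin co-receptor Cd14 (log2 ratio 1.13), and 0 lower, beside 4.20% and 2.92% of all tested rows. None of the macrophage markers was at 0. Ratios in that list were above 0 for 6 genes and below 0 for 11, so its median covers members on both sides.

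Dendritic cell markers were mixed, with 8 of 12 tested and a median of -0.51. In that list Flt3, a receptor of their progenitors, was called lower (log2 ratio -1.33) and Bst2, also an interferon-stimulated gene, higher (1.37). Over all tested rows 2.92% were called lower and 4.20% higher. The list summed to 130 FPKM for C1 and 161 FPKM for C2, and without Bst2 to 89.6 and 57.3 FPKM, the other direction. The plasmacytoid marker Siglech had 0.187 (C1) and 0.0679 FPKM (C2) according to the authors' deposited table and was not tested by Cuffdiff. This is a single value near the floor and gives no direction for these cells. In the same list Bst2 (log2 ratio 1.37) and Tcf4 (-0.48, not called) went in opposite directions. Plasmacytoid cells are known to hold much Irf7, and their part in the Irf7 result was not tested.

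Stat3, the factor of interleukin-6 family cytokines, was the most abundant of the 9 in both conditions. For Stat3 the authors' deposited table lists 48.6 FPKM under C1 and 48.5 FPKM under C2 (log2 ratio -0.00, q = 0.997). Its ligands and receptors had 0 called members of 12 tested, beside 7.12% of all tested rows, with a median of -0.21, and the most abundant, the cytokine Clcf1, had 69.7 (C1) and 54.1 FPKM (C2) according to the authors' deposited table (q = 0.737). Among 18 STAT3 target genes 1 was called higher, the angiogenic factor Vegfa (log2 ratio 0.85), and 1 lower, the protease inhibitor Timp1 (-1.0), beside 4.20% and 2.92% of all tested rows. The median of that list was -0.23.

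Stat3 also lies beside close relatives on chromosome 11, in the order Stat5b, Stat5a and Stat3. By coordinates Stat5a, a mediator of prolactin in mammary epithelium, ends 1564 bases from the Stat3 locus in the authors' deposited table. It was called, close to the threshold: for Stat5a the authors' deposited table lists 3.89 FPKM under C1 and 8.24 FPKM under C2 (log2 ratio 1.08, q = 0.0499). Stat5b had 9.52 (C1) and 9.89 FPKM (C2) according to the authors' deposited table and was not called (log2 ratio 0.06). Of these neighbouring genes 1 was called, and the difference between them was not tested.

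In MGSCv37, the build of the deposited table, Irf1 lies at chr11:53583515-53591876, Irf2 at chr8:47825098-47932812 and Irf8 at chr8:123260275-123280592. Irf3 lies at chr7:52253017-52258218, on the chromosome that also holds Irf7, and Irf5 at chr6:29476624-29487320. The ISGF3 genes Irf9 and Stat2 lie at chr14:56222821-56228867 and chr10:127707631-127729927, and Stat3 at chr11:100748123-100800825. Each span is the whole locus, exons and introns together. These loci overlapped no other row (0), so no overlapping row shares their reads in this table. The nearest tested named rows on either side numbered 18 in all. Of these 2 were called, beside 7.12% of all tested rows, and this count is read as no result. They were Stat5a beside Stat3 (q = 0.0499) and Stox2 beside Irf2 (q = 0.0414). Beside Irf7, Phrf1 lies 431 bases away and had 14.7 (C1) and 17.6 FPKM (C2) according to the authors' deposited table (log2 ratio 0.26, q = 0.726). On the other side Cdhr5, a cadherin of intestinal and kidney epithelium, lies 2660 bases away and had 0.0156 (C1) and 0.726 FPKM (C2) according to the authors' deposited table. Its log2 ratio of 5.54 rests on a C1 value near 0 and was not called (q = 0.675). Irf3 has neighbours within 100 bases on both sides, Bcl2l12 at 68 and Scaf1 at 96, with log2 ratios of 0.07 and 0.10.

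**Figure D3:**
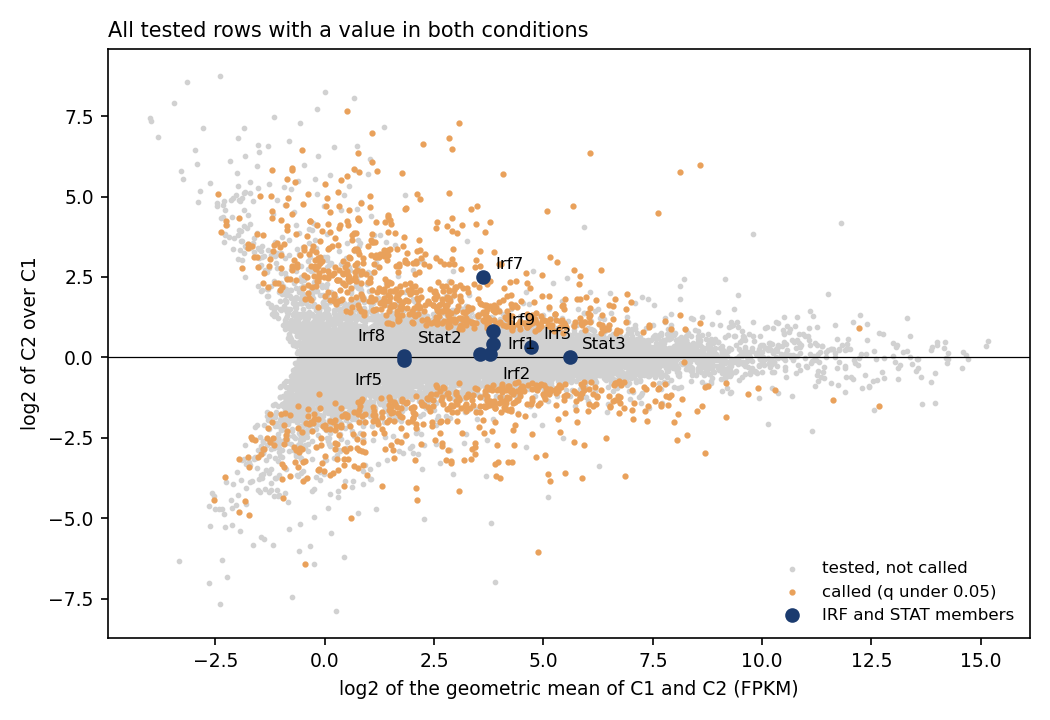
Log2 of C2 over C1 against the log2 geometric mean level in FPKM for all tested rows with a value in both conditions, with called rows in orange and the 9 genes in dark blue. Irf7 lies among the called rows, and Irf9, at 0.82, was not called.

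Irf4, a lymphocyte factor, had 0.736 (C1) and 0.265 FPKM (C2) according to the authors' deposited table and was not called (q = 0.118). Of 12 lymphocyte and NK markers 5 were tested and 3 called lower, beside 2.92% of all tested rows. The called ones include Cd79a (log2 ratio -3.24) and Cd79b (-2.91), which signal from the antigen receptor of B cells. That list summed to 11.1 FPKM for C1 and 3.11 FPKM for C2. The T-cell gene Cd3d was near the floor in both, at 0.027 (C1) and 0 FPKM (C2), and was not tested by Cuffdiff. Stat4, which acts below interleukin-12, had 0.218 (C1) and 0.0874 FPKM (C2) according to the authors' deposited table and was not tested. Stat6, a mediator of interleukin-4, had 30.7 (C1) and 35.7 FPKM (C2) according to the authors' deposited table (q = 0.899). The part of these cell types in the results for the family was not tested.

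The genes that act above the factors, or restrain them, are given beside the 7.12% of all tested rows that were called, and nothing particular to them is read from the counts. Of 10 interferon receptor and JAK genes 1 was called higher, the lambda interferon receptor Ifnlr1, with 0.202 (C1) and 1.01 FPKM (C2) according to the authors' deposited table, and the median was -0.12. Interferon genes themselves were near the floor of the table. Of 8 in the list, 3 were at 0 in both conditions (Ifna1, Ifna4 and Ifnk), 7 were under 1 FPKM in both, and 1 was tested, Ifne, with 0.286 (C1) and 1.21 FPKM (C2) according to the authors' deposited table (q = 0.290). Of 14 adaptors and kinases that activate IRFs, 13 were tested and 0 called in either direction, with a median of 0.13. Within that list Cuffdiff's unadjusted p in the authors' deposited table was under 0.05 for Tmem173, the adaptor STING, at 104 and 72.1 FPKM (p = 0.03325, q = 0.229). Of 19 restraints of the pathway 1 was called higher, Socs2 (log2 ratio 1.00), with a median of 0.21.

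Of 30 target genes of ISGF3, all tested, 15 were called higher and 0 lower in C2, beside 4.20% of tested rows called higher. Ratios were above 0 for 29 and below 0 for 1, with a median log2 ratio of 1.37 beside 0.05 over all tested rows. The antiviral enzyme Rsad2 had 0.50 (C1) and 4.35 FPKM (C2) according to the authors' deposited table, and its log2 ratio was 3.12. Xaf1, Cmpk2 and the ubiquitin-like Isg15 had log2 ratios of 2.85, 2.57 and 2.29. Irf7, at 2.49, lay inside the range of these targets, from -0.03 to 3.12. That range is wide and does not set Irf7 apart. Uncalled factors such as Irf9 (0.82) and Stat2 (0.12) lay inside it too, and of the 9 only Irf5 (-0.09) lay outside. Among 18 tested targets of IRF1 and gamma interferon 5 were called higher and 0 lower, with a median of 0.73. Gbp3, Tap1 and Irgm1 had log2 ratios of 1.73, 1.64 and 1.5. These lists were drawn up with the rise of interferon-stimulated genes in these data known, and are no independent support for it.

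The ISRE core was present in the windows of 13 of 21 ISGF3 targets with a window (61.9%), against 9.76% of all genes. It was present in 11 of 17 targets of IRF1 and gamma interferon (64.7%). Both lists were chosen as known targets of factors of this kind, so these shares are no result of the present data. Stretches around the first match of 2 targets named above and of the antiviral genes Ifit1 and Ifit3, added after seeing their values, show matches of the kind not found in the Irf7 window. Capitals again mark matches, which can overlap, with 10 bases on either side.
Rsad2 (chr12:26456553-26456581, minus strand): tggtccaactTTCATTTTCagaaaacaga
Isg15 (chr4:156200866-156200906, minus strand): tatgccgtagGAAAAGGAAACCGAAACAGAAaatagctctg
Ifit1 (chr19:34640770-34640804, plus strand): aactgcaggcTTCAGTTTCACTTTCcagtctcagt
Ifit3 (chr19:34583364-34583392, plus strand): agtggtaagtTTCACTTTCctcttctggt
Ifit1 had 2.97 (C1) and 10.6 FPKM (C2) according to the authors' deposited table and Ifit3 had 3.13 and 9.70, log2 ratios of 1.84 and 1.63. Their relative Ifit2, of the same list, had 6.18 (C1) and 6.54 FPKM (C2) according to the authors' deposited table. It was not called (log2 ratio 0.08, q = 0.964). In these windows the first match began 119 bases upstream of the start in Rsad2, 78 in Isg15, 109 in Ifit1 and 155 in Ifit3. Of the 13 targets with the core 9 were called, with a median log2 ratio of 1.47, and of the 8 without it 4 were called, with a median of 1.73. The targets with the letters in this window thus had no higher median than those without, while calls were 9 of 13 against 4 of 8. Over all tested rows 4.20% were called higher. Neither difference between the targets with and without the core was tested.

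**Figure D4:**
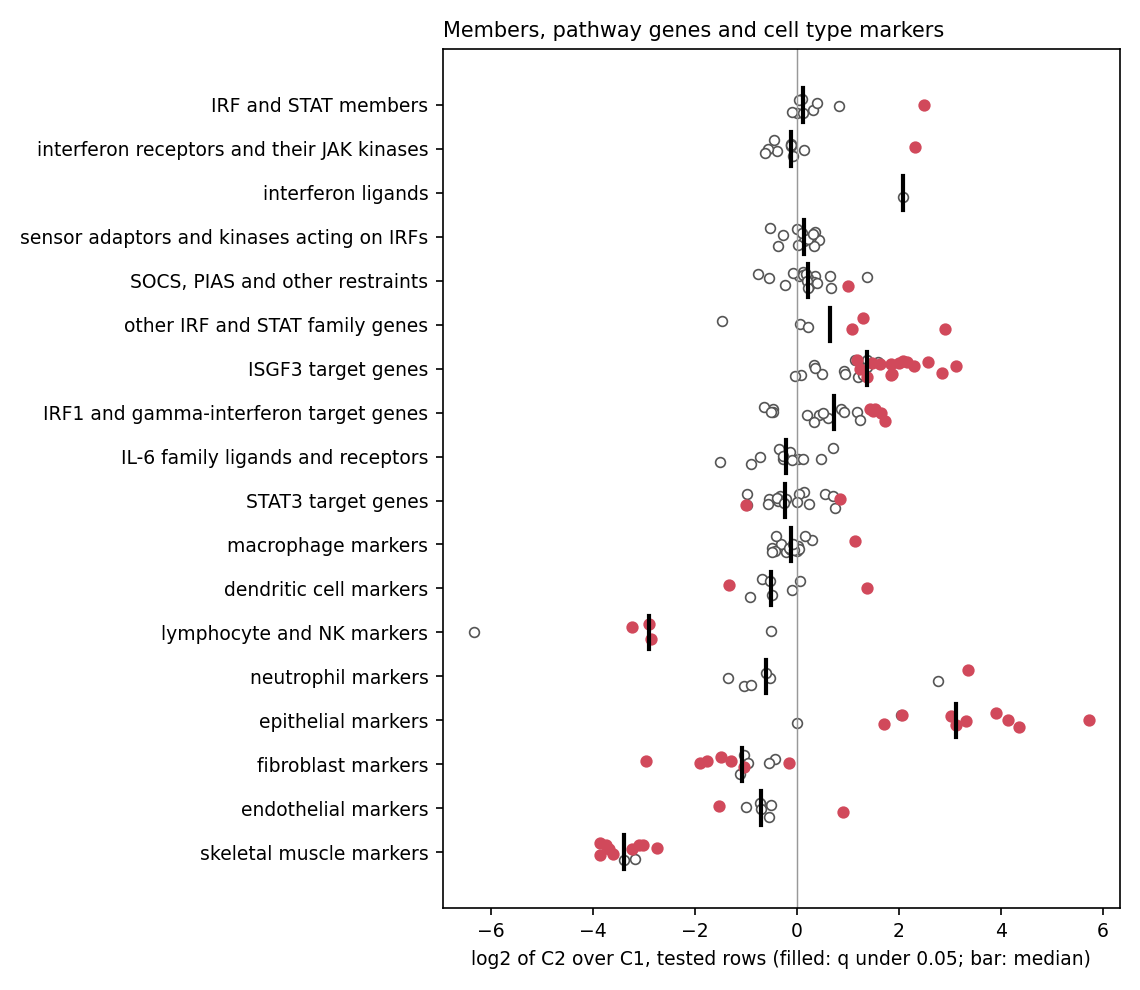
Log2 of C2 over C1 for each tested gene of the 9 factors, the pathway lists and the cell type markers, with filled points for q under 0.05 and a bar at each median. The factors have a median of 0.12 with Irf7 apart at 2.49, and the ISGF3 targets have a median of 1.37 with 15 of 30 called.

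Other cell types gave the following values, to be set beside the 4.20% of all tested rows called higher and 2.92% called lower. Epithelial markers had 9 of 11 called higher (median 3.13, Cldn7 at 5.73) and sums of 642 and 1118 FPKM. Fibroblast markers had 7 of 12 called lower (median -1.07, Thy1 at -2.97) and sums of 9438 and 4686 FPKM. Among the called ones Col1a1 had a log2 ratio of only -0.15 (q = 0.0138). Skeletal muscle markers had 9 of 11 called lower (median -3.39, Tnnc2 at -3.86) and sums of 1513 and 139 FPKM. Endothelial markers had 1 of 8 called in each direction (median -0.70, Tek at -1.53 and Cdh5 at 0.90) and sums of 146 and 120 FPKM. Neutrophil markers had 1 of 7 called higher, Ltf (3.36), a median of -0.61 and sums of 90.5 and 52.3 FPKM. Their gene Elane was near the floor in both, at 0 (C1) and 0.0384 FPKM (C2), and was not tested by Cuffdiff. Whether the shifts in these lists contribute to the Irf7 result was not tested.

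In the authors' list of called genes Irf7 is the one present of the 9, and Stat5a is present too. None of the 9 genes (0) appears in the 28 gene ontology terms that the authors selected, while Stat5a appears in 8.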

How the data were processed

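Messenger RNA of 5 tumours was sequenced as single reads of 100 bases from a stranded kit, per the labels' protocols. Implanted tumours were treated from 500 mm3, with 5 doses a day by the rectal route, and taken 30 minutes after the last dose. Mapping to MGSCv37 used Bowtie and TopHat, and Cufflinks estimated abundance and differences, per the series' design text. Versions in the submitters' processing notes are TopHat2 2.0.8b, Cufflinks 2.1.1 and CASAVA 1.8.2. The authors deposited 1 value per condition, whose unit the header does not name and whose Cuffdiff layout implies FPKM. FPKM divides by length and by sequenced fragments, so levels can be set side by side between genes. The p-values, q-values and the test statistic, a score, are those the authors deposited. The deposited log2 fold was used only as an alternative, because some of its cells are not numbers. The deposited gene ontology selection was used for membership only. Whether counting used the strand is unknown.

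The log2 ratio is that of the C2 value over the C1 value with no pseudocount. Where a symbol had several rows, a tested row was taken before an untested one, and then the one with the highest mean of C1 and C2. No test was fitted, since there are no values per tumour. The q was adjusted over all 16681 tested rows. The members and lists were chosen with earlier results of these data known. All 9 genes are named. In each list up to 4 called genes were named by absolute log2 ratio, leaving out joined rows, or the most abundant where none was called. Some genes of these lists are not reported here. Other names are IRF and STAT relatives, neighbours of the loci, and genes singled out after their values were seen. The last are Siglech, Tcf4, Vim, Cd3d, Elane, Col1a1, Ifit1, Ifit2, Ifit3 and the interferon genes at 0. No gene was named for its likeness to a factor, since 2 values form no pattern. Bst2, Usp18 and Socs3 each stand in 2 lists. The p-value adjustments were tested on simulated data. Promoter windows are RefSeq's on GRCm38.p6, a later build than MGSCv37, and were not placed on the deposited coordinates. Proteins were not analysed here. Alternatives were q under 0.01, minimums of 1 and 5 FPKM, Holm and Benjamini-Yekutieli adjustments, a 2-fold minimum, no joined rows, pseudocounts of 0.1 and 1, re-centring, the deposited fold and, added after seeing the data, a normal p of the test statistic. Computation used pandas 2.3.3 with numpy 2.4.6 on Python 3.11.15, p-values of the added alternative used SciPy 1.17.1, and plots used matplotlib 3.10.9.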

Additional observations from a re-analysis of the deposited data

How the results depend on the processing

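No paired analysis was possible because each condition has a single deposited value, and leaving out each replicate was not run for the same reason. Irf7 was called (1 of 9) under every alternative but 2, and its log2 ratio was 2.49 throughout those that change only the call. With the Holm adjustment 0 of the 9 genes and 0 rows of the table were called. Cuffdiff's p for Irf7 became 0.834 after it (log2 ratio 2.49), because the smallest p, 5e-05, is too large for that adjustment over 16681 rows. With a normal p computed from the deposited test statistic, an alternative added after seeing the data, 0 of the 9 and 629 rows were called. For Irf7 that normal p was 0.00437 and 0.102 after adjustment, and for Irf9 it was 0.254 before adjustment, larger than Cuffdiff's, and the cause was not tested. Called rows numbered 702 at q under 0.01 and 595 with the Benjamini-Yekutieli adjustment, against 1187. Re-centring turned the ratio of Irf8 to -0.01. The direction and call of the 9 genes held in 103 of 106 alternatives. Many of these could not have changed the uncalled genes, so the count is no measure of robustness. A stricter threshold adds no call, and a pseudocount does not turn the sign of a ratio. At the stricter q of 0.01, which by construction passes fewer genes, called genes were 0 for interferon receptors and JAKs, 0 for restraints, 0 in either direction for STAT3 targets, 0 for lymphocyte and NK markers, 0 in either direction for endothelial markers, and 2 for targets of IRF1 and gamma interferon. With a pseudocount of 1, which shrinks ratios of low genes, medians were 0.78 for interferon genes (1 gene), -0.91 for lymphocyte and NK, 2.02 for epithelial and -3.04 for muscle markers. Re-centring gave 2.02 for interferon genes.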
